A study of Mus musculus with 2 samples.

Results

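The genes described here encode subunits and assembly factors of respiratory complex I, the NADH:ubiquinone oxidoreductase of the mitochondrial inner membrane. They were chosen by a mouse gene symbol starting with Nduf, and 46 of the 23458 genes with a named probe on the array qualified. All 46 were well above background in both samples, among 12846 genes of which that held. Of the 46, 36 are subunits of complex I, 8 are assembly factors (symbols starting with Ndufaf), and 2, Ndufa4 and Ndufa4l2, carry the prefix but are not counted as complex I subunits here.

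The study set slow skeletal muscle fibres against fast ones, with RNA of 1 pool of isolated fibres per type on 1 array each. The slow pool held 1659 fibres that showed GFP fluorescence and came from the soleus, a postural calf muscle. The fast pool held 4447 fibres without GFP from the extensor digitorum longus (EDL), a fast muscle of the lower leg. Both pools came from 8 male mice of 6 to 8 weeks, all heterozygous for GFP-Myh7 (G/+), an allele that labels the slow type I myosin heavy chain, so the fast pool carries it too. Muscle of origin and fibre type differ together, and for the slow sample the tissue field gives the EDL, whereas the source label and the protocol give the soleus, which was taken as its origin. There were no replicates, so no gene was tested, a difference of at least 2-fold (1 on the log2 scale) took the place of a test, and every statement below is about these 2 pools.

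Complex I takes electrons from NADH, passes them over flavin and iron-sulfur clusters to ubiquinone, and pumps protons. A peripheral arm in the matrix holds the NADH and ubiquinone sites, and a membrane arm does the pumping. The core subunits catalyse the reaction and are shared with bacteria, some of them being encoded by mitochondrial DNA and absent from the genes described here, while accessory subunits surround the core. Assembly factors help to build or modify the complex and are not part of the finished enzyme. Slow fibres are known for oxidative metabolism, but in mice fast fibres of the IIA and IIX types are also rich in mitochondria.

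Levels are log2 processed intensities relative to the 75th percentile of their array, and differences are slow minus fast. The slow array had 50.9% of its 59305 spots well above background and the fast array 52.3%. The slow pool was at least 2-fold higher in all 7 slow-fibre markers and the fast pool in all 9 fast-fibre markers. Myh7 is among the 7, and fibres were chosen by GFP from the GFP-Myh7 allele, so its difference is no independent check. Of the fast myosin genes, Myh4 (type IIB) stood at 9.81 in the fast pool and -1.73 in the slow pool. Myh1 (IIX) stood at 8.76 in the fast pool and 1.92 in the slow pool, and Myh2 (IIA) at 7.69 in the fast pool and 5.85 in the slow pool. Levels of different genes are not comparable, so these values give no shares of fibre types. Markers of other cells were lower in the slow pool: at least 2-fold for 5 of 6 endothelial, 6 of 6 fibroblast, 4 of 4 measured erythrocyte and 2 of 3 measured macrophage genes, with Ptprc and Adgre1 of the last list not well above background in either pool. The summed intensity of the endothelial list was 567 in the slow pool and 2796 in the fast pool, and that of the fibroblast list 7418 in the slow pool and 28235 in the fast pool. A gene counts as measured here only if it was well above background in both pools, so all measured genes of these lists were. The part that such RNA has in the values below was not tested. In RNA of pooled fibres, fewer cells of a type and less RNA per cell cannot be told apart.

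Relative to the 75th percentile of each array, the subunits of complex I were at nearly the same level in the slow and the fast pool. Over the 36 subunits the median difference was -0.00087, with 18 subunits above 0 and 18 below, beside a median of 0.05 over all 12846 genes. This balance depends on the scaling: the median was 0.14 with 31 subunits above 0 under quantile normalization, 0.40 with 35 above 0 under scaling to spike-in controls, and -0.11 with 10 above 0 in the authors' value table. No subunit reached 2-fold in either direction, a size that 9.47% of all genes reached towards slow fibres and 12.7% towards fast fibres. At 1.5-fold, 35 of the 36 subunits stayed within the limit, whereas 41% of all genes lay past it, 20.1% towards slow and 20.9% towards fast fibres. At a limit of 0.32 on the log2 scale, 5 of the 46 members lay past it towards slow fibres and 6 towards fast fibres, beside 32.7% of all genes towards slow and 30.1% towards fast fibres. The differences had an SD of 0.24 over subunits and a median size of 0.11, against an SD of 1.09 and a median size of 0.47 over all genes. The software error of 1 such difference combines the errors that the scanner software assigns to the gene's probe on each array. It was 0.20 for nearly every member, and most subunits differed by less than that. Being nearly equal for all members, it acts as a fixed size limit. Repeated spots of a probe gave a smaller technical spread, with a median SD of a difference of 0.05 over 288 probes.

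**Figure D1:**
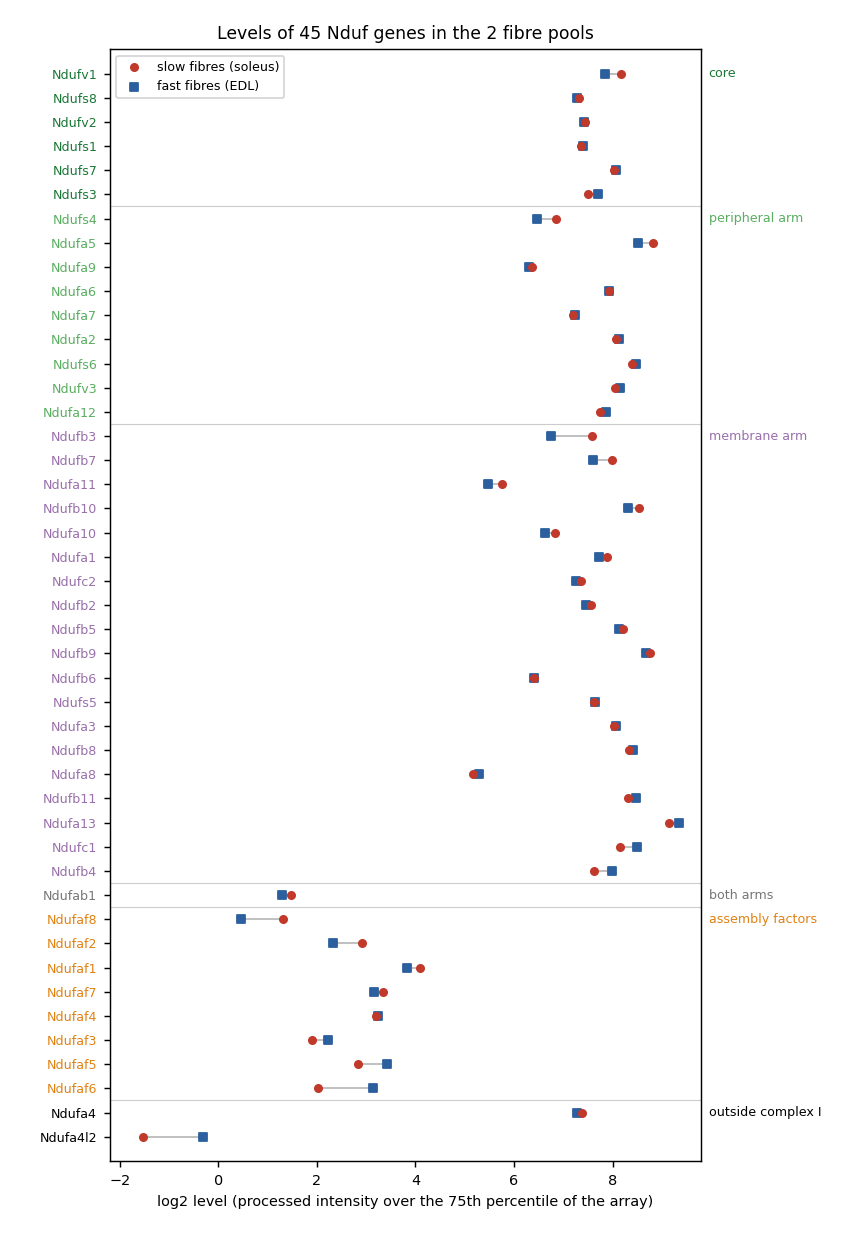
Log2 level (x axis, processed intensity over the 75th percentile of the array) of 45 of the 46 Nduf genes in slow fibres (circles) and fast fibres (squares), 1 array each, ordered by role and then by difference. The 2 marks nearly coincide for most subunits and lie apart for Ndufb3, Ndufaf8, Ndufaf2, Ndufaf5, Ndufaf6 and Ndufa4l2; positions of different genes on the x axis are not comparable, because each has its own probe.

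Among the 7 core subunits encoded in the nucleus, which bind NADH and carry the iron-sulfur clusters, 3 were above 0 and 4 below, with a median of -0.04. Ndufv1, the subunit that binds NADH and the flavin, stood at 8.16 in slow fibres and 7.85 in fast fibres, a difference of 0.31. Its partner Ndufv2 stood at 7.45 in slow fibres and 7.42 in fast fibres. Ndufs1, the largest core subunit, stood at 7.37 in slow fibres and 7.41 in fast fibres. These 3 belong to the module that oxidises NADH, and only Ndufv1 among them differed by more than 1 software error.

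Ndufs3, a core subunit of the part nearer to ubiquinone, stood at 7.49 in slow fibres and 7.70 in fast fibres, a difference about the size of the software error. Ndufs7 and Ndufs8, which carry the clusters that hand electrons on to ubiquinone, differed by -0.04 and 0.04.

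The 9 accessory subunits of the peripheral arm lay between -0.13 and 0.39, with a median of -0.03 and an SD of 0.18. Ndufs4, an accessory subunit needed for a stable NADH-oxidising module, was the highest, at 6.84 in slow fibres and 6.46 in fast fibres, or 1.31-fold higher in slow fibres. Ndufa5 followed, at 8.82 in slow fibres and 8.52 in fast fibres, and Ndufa9, a subunit beside the ubiquinone site, differed by 0.08. At the lower end were Ndufa12 at -0.13, Ndufv3 at -0.11 and Ndufs6, a zinc-binding subunit, at -0.08. The remaining 3, Ndufa2, Ndufa6 and Ndufa7, lay between -0.06 and -0.0026.

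Of the 19 accessory subunits of the membrane arm, 11 were above 0 and 8 below, with a median of 0.08. Ndufb3, a small subunit of the membrane arm, stood at 7.59 in slow fibres and 6.75 in fast fibres. Its difference of 0.84, or 1.79-fold higher in slow fibres, was the largest of any subunit and the only one past 1.5-fold. It was also larger than 2 software errors, a size that 27.1% of all genes passed towards slow fibres and 25.6% towards fast fibres. Ndufb7, on the intermembrane side, stood at 7.99 in slow fibres and 7.60 in fast fibres, and Ndufa11 at 5.75 in slow fibres and 5.47 in fast fibres.

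Others of the membrane arm were higher in fast fibres, none by 1.5-fold. Ndufb4 stood at 7.61 in slow fibres and 7.99 in fast fibres, a difference of -0.38. Ndufc1 stood at 8.14 in slow fibres and 8.50 in fast fibres, a difference of -0.35. Ndufa13, also known as GRIM-19, stood at 9.15 in slow fibres and 9.36 in fast fibres. Ndufb4 has close relatives in the genome, Ndufb4b and Ndufb4c, for which no probe was matched, and whether its probe also reports them was not tested. The other 13 members of this arm lay between -0.17 and 0.22, with Ndufb11 at the lower and Ndufb10 at the upper end.

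Ndufab1, the mitochondrial acyl carrier protein that sits in both arms, stood at 1.47 in slow fibres and 1.28 in fast fibres, a difference of 0.19.

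**Figure D2:**
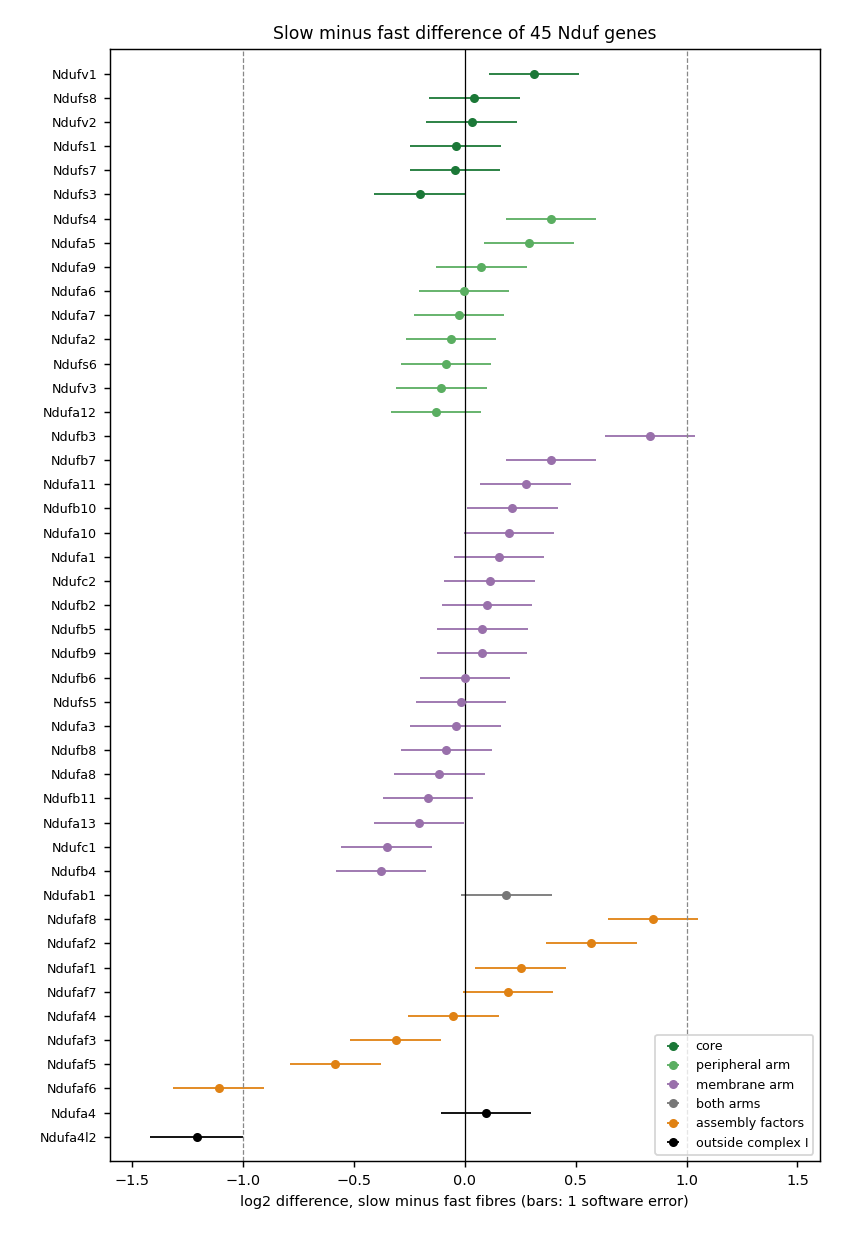
Log2 difference, slow minus fast fibres, of 45 of the 46 Nduf genes (points, coloured by role) with 1 software error to each side (bars), which is not a biological error; dashed lines mark 2-fold. Subunits cluster at 0 with Ndufb3 at 0.84, the 8 assembly factors run from -1.11 to 0.85, and Ndufa4l2 lies at -1.21.

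The assembly factors differed more between the pools than the subunits did, and they did so in both directions. Their median difference was 0.07, with 4 above 0 and 4 below, so that the medians of subunits and assembly factors were only 0.07 apart. Their SD was 0.63, which is 2.64 times that of the subunits, and the median size of a difference was 0.44. Without replicates, this inequality of spread was not tested. Beyond 2 software errors were 2 of the 8 towards slow fibres and 2 towards fast fibres, close to the shares of all genes given above. By SD both sets had a narrower spread than all genes, whose SD was 1.09. The assembly factors' median size of difference was near that of all genes, 0.47. Past 1.5-fold were 2 of the 8 assembly factors, beside 41% of all genes. The 2 sets differ in probe brightness: the levels of subunits had a median of 7.68 in slow fibres and 7.71 in fast fibres, those of assembly factors 2.87 in slow fibres and 3.14 in fast fibres. By mean level, 35 of the 36 subunits and 6 of the 8 assembly factors were in the highest of 3 equal sets of genes. In that highest set 31.6% of genes lay past 1.5-fold in either direction, and in the middle set 40.3%. The median size of a difference was 0.36 in the highest set. The part of brightness in the unequal spread was not tested.

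Ndufaf6, a factor that human cells need at an early step of assembly, stood at 2.02 in slow fibres and 3.13 in fast fibres. It was 2.16-fold higher in fast fibres, the only assembly factor past 2-fold. Ndufaf8 had the largest difference towards slow fibres, with a level of 1.30 in slow fibres and 0.45 in fast fibres, or 1.80-fold. Ndufaf5, which hydroxylates an arginine of Ndufs7 and, in human cells, is stabilised by its partner NDUFAF8, went the opposite way from Ndufaf8. Its level was 2.83 in slow fibres and 3.42 in fast fibres, a difference of -0.58 or just under 1.5-fold higher in fast fibres.

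Ndufaf2, a relative of the subunit Ndufa12 that holds its place on the complex during assembly, stood at 2.91 in slow fibres and 2.34 in fast fibres. Its difference of 0.57 was just under 1.5-fold, whereas Ndufa12 itself differed by -0.13. Ndufaf1, part of the complex that builds the membrane arm, stood at 4.08 in slow fibres and 3.83 in fast fibres. Ndufaf7, an arginine methyltransferase of the mitochondrial matrix, stood at 3.35 in slow fibres and 3.16 in fast fibres.

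Ndufaf3 and Ndufaf4 work together on the ubiquinone-binding part of the peripheral arm. Ndufaf3 stood at 1.91 in slow fibres and 2.22 in fast fibres, a difference of -0.31, and Ndufaf4 at 3.19 in slow fibres and 3.24 in fast fibres. Neither lay more than 2 software errors from 0.

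The promoters of the members farthest from 0 are shown with short motifs of regulators known to act on respiratory chain genes. Each window runs from 250 bases before to 50 bases after the gene's start and comes from RefSeq, build GRCm38.p6. Of the 6 members farthest from 0, the table holds Ndufaf8, Ndufb3, Ndufaf2 and Ndufaf5, and Ndufaf6 and Ndufa4l2 are named only. The motifs were searched on both strands as AAGATGGCG for YY1, CCGGAAG for ETS factors such as GABP, GCANGCGC for NRF1 and TCAAGGTCA for estrogen-related receptors. Capitals mark the matches, and the GCANGCGC match of Ndufaf5 is made of 2 overlapping matches on opposite strands. The windows lie at chr11:120098684-120098983 (+ strand) for Ndufaf8, chr1:58586147-58586446 (+ strand) for Ndufb3, chr13:108158576-108158875 (- strand) for Ndufaf2 and chr2:140170396-140170695 (+ strand) for Ndufaf5.
Ndufaf8: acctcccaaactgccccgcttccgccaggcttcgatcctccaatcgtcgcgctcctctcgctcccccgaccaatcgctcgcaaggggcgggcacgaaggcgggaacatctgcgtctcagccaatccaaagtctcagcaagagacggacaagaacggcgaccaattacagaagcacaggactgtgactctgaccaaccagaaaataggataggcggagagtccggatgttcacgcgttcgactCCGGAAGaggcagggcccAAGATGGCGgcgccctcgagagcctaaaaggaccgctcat
Ndufb3: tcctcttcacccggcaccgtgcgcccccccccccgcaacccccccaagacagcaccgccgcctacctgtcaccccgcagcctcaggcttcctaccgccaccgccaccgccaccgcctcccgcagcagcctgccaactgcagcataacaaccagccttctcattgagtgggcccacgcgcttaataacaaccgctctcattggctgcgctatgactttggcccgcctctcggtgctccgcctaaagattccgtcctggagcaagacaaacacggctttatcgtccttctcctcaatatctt
Ndufaf5: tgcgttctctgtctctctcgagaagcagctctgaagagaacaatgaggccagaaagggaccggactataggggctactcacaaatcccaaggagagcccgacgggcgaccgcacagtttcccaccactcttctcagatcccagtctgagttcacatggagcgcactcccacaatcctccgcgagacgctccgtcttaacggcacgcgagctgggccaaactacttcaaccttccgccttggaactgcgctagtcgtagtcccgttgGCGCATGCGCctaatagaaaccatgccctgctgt
Ndufaf2: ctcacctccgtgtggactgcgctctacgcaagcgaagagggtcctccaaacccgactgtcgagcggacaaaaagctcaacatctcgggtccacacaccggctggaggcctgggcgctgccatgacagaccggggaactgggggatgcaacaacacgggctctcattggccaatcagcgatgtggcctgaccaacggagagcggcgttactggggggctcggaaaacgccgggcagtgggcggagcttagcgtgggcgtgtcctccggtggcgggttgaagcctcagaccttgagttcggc

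Ndufaf8 held a YY1 match 3′ of an ETS match, near the start, Ndufaf5 held the NRF1 match, and Ndufb3 and Ndufaf2 held none of the 4. Over the 40 members in the table, 12 genes (30%) held GCANGCGC, beside 10.8% of all 27025 genes. AAGATGGCG was in 6 (15%), beside 1.64% of all genes, and CCGGAAG in 6 (15%), beside 9.93% of all genes. TCAAGGTCA was in none of the 40 and in 0.466% of all genes. The median difference of members was -0.03 with GCANGCGC and 0.08 without it, 0.02 with AAGATGGCG and 0.04 without it, and 0.15 with CCGGAAG and 0.01 without it. A match describes letters in this window and is not evidence of binding.

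Assembly factors of complex I with other names had a spread nearer to that of the subunits. Of 12 listed, 11 were measured, 8 of them above 0 and 3 below, with a median of 0.11 and an SD of 0.30, and none was past 1.5-fold. Dmac2 and Dmac1, factors of the distal membrane arm, were the highest at 0.55 and 0.49. Nubpl, which delivers iron-sulfur clusters to the complex, was the lowest, at 0.56 in slow fibres and 1.02 in fast fibres. Ecsit, Acad9 and Tmem126b, which act in 1 complex with Ndufaf1, differed by 0.24, -0.22 and 0.01. With all 19 assembly factors together the SD was 0.46.

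The nuclear subunits of the other respiratory complexes were given for comparison. The 44 measured subunits of complexes II to V had a median of 0.11 and an SD of 0.31, with 2 past 2-fold, Cox8a at 1.34 and Cox6a1 at 1.19, both of complex IV and higher in slow fibres. Complex I had 18 of 36 subunits above 0, complexes II to V had 34 of 44, and 53.2% of all genes were above 0. These counts move with the scaling, to 35 of 36 in complex I and 43 of 44 in complexes II to V under spike-in scaling and to 10 of 36 and 22 of 44 in the authors' value table. Under quantile normalization they were 31 of 36 and 42 of 44. The median there was 0.14 in complex I and 0.41 in complexes II to V, beside 0.05 over all genes. Both the median of complexes II to V and its distance from that of complex I thus depend on the scaling. The SD was 0.27 over the 4 genes of complex II, 0.11 over the 9 of complex III, 0.48 over the 14 of complex IV and 0.16 over the 17 of complex V. Complexes II and IV thus had a wider spread than the complex I subunits and complexes III and V a narrower one. The wider spreads rested on few genes. In complex IV, all but Cox8a, Cox6a1 and the dim Cox4i2 (-0.51) lay between -0.18 and 0.26. In complex II, all but Sdhc (0.68) lay between 0.09 and 0.17. Sdhc, a membrane anchor of complex II, stood at 6.61 in slow fibres and 5.93 in fast fibres.

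**Figure D3:**
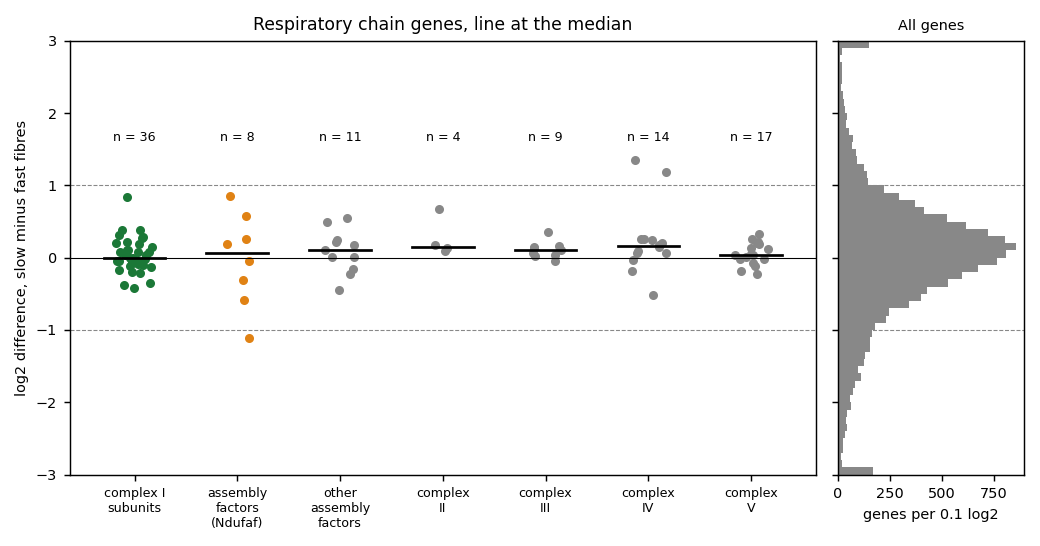
Left, log2 difference (slow minus fast fibres) of each gene measured on both arrays in complex I, its assembly factors and complexes II to V, with a line at each median and dashed lines at 2-fold; sideways scatter has no meaning. Right, the number of all 12846 genes per step of difference, with genes beyond the axis counted in the outermost steps. The 36 complex I subunits form a narrow band at 0 and the 8 Ndufaf factors are spread from -1.11 to 0.85.

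Of 8 listed regulators of respiratory chain genes, 5 were above 0 and 3 below, with a median of 0.12. Esrra, a nuclear receptor that acts on many mitochondrial genes, stood at 5.36 in slow fibres and 4.76 in fast fibres. Ppargc1a, which encodes its coactivator PGC-1alpha, stood at 3.84 in slow fibres and 4.54 in fast fibres. These 2 of 8 lay past 1.5-fold, beside 41% of all genes.

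The 2 genes with the Nduf prefix outside complex I behaved differently from each other. Ndufa4, now assigned to cytochrome c oxidase, stood at 7.38 in slow fibres and 7.28 in fast fibres, a difference of 0.09. Its paralogue Ndufa4l2, known as a gene induced by hypoxia, stood at -1.52 in slow fibres and -0.32 in fast fibres. It was 2.31-fold higher in fast fibres, the largest difference of the 46 genes with this scaling. Its probe was also the dimmest of the chosen ones, with an intensity of 66.7 in slow fibres and 144 in fast fibres, and under both normexp background corrections its difference was -0.67 and -0.68, no longer 2-fold and smaller than those of Ndufaf6 and Ndufb3. Ndufa5, at 0.70, also passed it in size under normexp with quantile normalization, and Ndufaf8, at 0.69, under normexp with the 75th percentile. Under spike-in scaling the difference of Ndufa4l2 was -0.81, smaller in size than those of Ndufaf8, Ndufb3 and Ndufaf2.

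Ndufa4l2 is known from pericytes, the cells that wrap capillaries. Of 6 pericyte markers, a list added after its value was seen, 4 were 2-fold or more higher in the fast pool and 1, Cspg4, in the slow pool. The summed intensity of the 6 was 2672 in slow fibres and 4453 in fast fibres, and all 6 were well above background in both pools. Rgs5 stood at 0.89 in slow fibres and 2.50 in fast fibres. The part of such cells in the Ndufa4l2 difference was not tested.

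For 10 of the 46 genes the array held a second probe, a separate spot for the same gene, though not always for the same transcript. In 9 of them the second probe passed the background filter in both pools, and all 9 had the same sign by both probes. The differences of the 2 probes were 0.03 to 0.20 apart, with a median of 0.06, less than the software error for 8 of 9 genes and about equal to it for Ndufa10. Ndufaf5 differed by -0.46 by its second probe, higher in fast fibres as by its first. Ndufv1 and Ndufa5 differed by 0.25 and 0.23 by their second probes. The second Ndufb8 probe was matched to another transcript than the first and was dim, with an intensity of 41.3 in slow fibres and 39.1 in fast fibres. It gave a difference of only -0.02, so its shared sign carries little weight. Ndufb3, Ndufaf6, Ndufaf8, Ndufaf2 and Ndufa4l2 had 1 probe each, so their values have no such check. The second Ndufa7 probe, for a noncoding transcript, failed that filter in both pools, with an intensity of 4.08 in slow fibres and 1.5 in fast fibres, and was the only probe that the choice of members passed over for dimness.

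**Figure D4:**
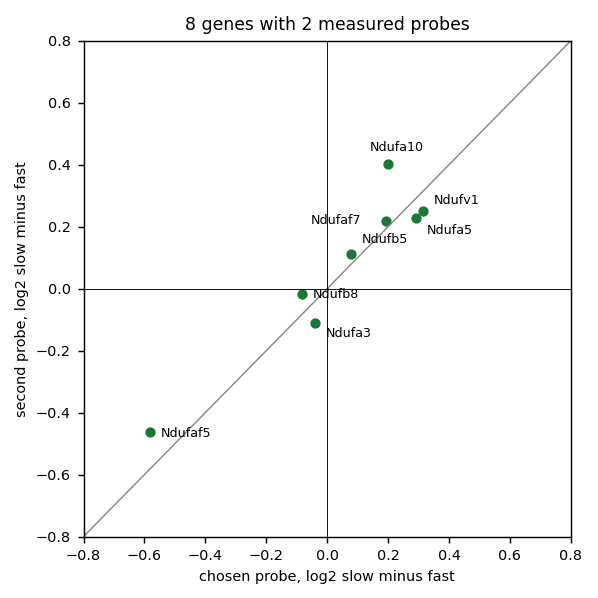
Log2 difference, slow minus fast fibres, by the chosen probe (x axis) and by the second probe (y axis) for 8 of the 9 genes with 2 probes measured on both arrays; the diagonal marks equal values. All 8 genes lie on the same side of 0 by both probes, from Ndufaf5 at -0.58 and -0.46 to Ndufv1 at 0.31 and 0.25.

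How far a member stands from 0 depends on the scaling between the arrays. The median of all genes moved by 0.40 under scaling to spike-in controls and by -0.11 in the authors' value table, and by less than 0.1 under the other 6 alternatives. Relative to that median, the subunits' median lay between -0.05 and 0.12 and that of the assembly factors between -0.01 and 0.07. The SD of the subunits lay between 0.24 and 0.26 over the 9 scalings and that of the assembly factors between 0.59 and 0.64. The median of all probes, the percentile over probes passing the background filter, spike-in scaling and the authors' table each add only a constant. These settings could not change the SDs, or the medians relative to that of all genes. Only quantile normalization, loess and the normexp settings could, so the ranges describe stability under those alone. Ndufb3, Ndufaf8 and Ndufaf2 were higher in slow fibres and Ndufaf5, Ndufaf6 and Ndufa4l2 higher in fast fibres under all 9 scalings. Under spike-in scaling Ndufb3 reached 1.23 and Ndufaf8 1.24, past 2-fold in slow fibres, while Ndufaf6 came to -0.71. Under spike-in scaling the sign turned for 11 of the 30 genes named singly or by rule. Among them were Ndufs1, Ndufs7, Ndufs3, Ndufs6, Ndufc1, Ndufb4, Ndufa13, Ndufaf3 and Ndufaf4, all below 0 with the main scaling.

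**Figure D5:**
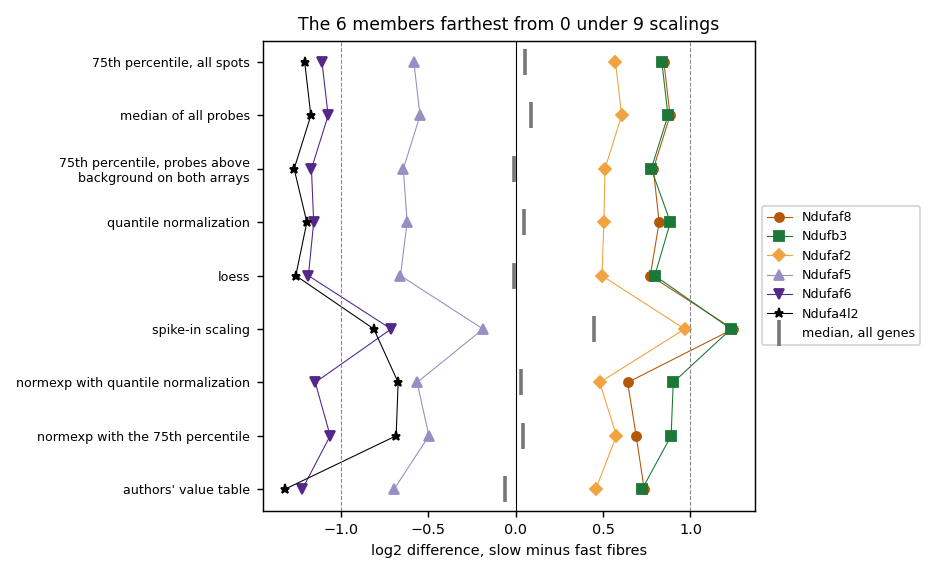
Log2 difference, slow minus fast fibres (x axis), of the 6 members farthest from 0 under the 9 scalings (rows), with the median of all genes as a grey bar and dashed lines at 2-fold. Each gene stays on 1 side of 0 in every row; under spike-in scaling all move up with the median of all genes, which lies at 0.45 there.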

How the data were processed

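Each deposited scanner file gives linear intensities per spot. Per the file headers, Agilent Feature Extraction 12.0.3.1 had subtracted background and spatial trend on each array, with no normalization between arrays. Flags of 0 or 1, a software error, and median intensities of spot and local background come from the same deposited files. The authors' deposited value table holds intensities in a constant proportion to the processed ones, 2.45 times on the slow and 2.83 times on the fast array, with medians of 27.1 and 30.1, without log or centring; what the factors scale to stays unknown. Per the labels' protocols, 0.1 µg of total RNA was labelled with Cy3.

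Control spots and 159 spots with an outlier flag were left out, repeated spots were averaged, and no spot was saturated. The level of a probe is its log2 processed signal less the array's 75th percentile over spots. Probe accessions were matched without versions to a RefSeq gene table of GRCm38.p6, used for names (the array design names build mm9), so 33763 of 56596 probes had a gene. Of 54 symbols starting with Nduf, 46 had one of 56 probes, and 8 had none matched (Ndufa11b, Ndufa12-ps, Ndufab1-ps, Ndufb1, Ndufb4b, Ndufb4c, Ndufs5-ps, Ndufs6b) and were not analysed here. The brightest probe well above background on at least 1 array stood for a gene. The median SD between repeated spots of a difference was 0.05, over 288 probes. With 1 array per group the number of arrays limits the precision and no test was run. On simulated data, only the 75th percentile scaling and the 2-fold rule were tried, with planted changes larger than 2-fold. The other steps were not tried on simulated data. Python 3.11.15, R 4.3.3 and limma 3.58.1 (normexp, quantile and loess) were used.

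The members and lists were chosen with earlier results of these data known. Named are the 7 core subunits, all assembly factors, the 3 highest and 3 lowest accessory subunits of each arm, Ndufab1, Ndufa4, Ndufa4l2 and any other member past 1.5-fold; the rest are given by range. Values of 1 core subunit are not reported here singly, though counts and medians include it. Other cell type and regulator lists were described by counts, and Coa1 had no matched probe.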

Additional observations from a re-analysis of the deposited data

How the results depend on the processing

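No paired analysis was possible because each group has 1 array, and for the same reason no replicate could be left out. The median difference of the subunits, near 0 with the main scaling, was -0.061 when the 75th percentile was taken over probes passing the background filter in both samples, 0.14 under quantile normalization, 0.16 under normexp with quantile normalization, 0.40 under spike-in scaling and -0.11 in the authors' table. That of the assembly factors was 0.011 under that same percentile, -0.0052 under loess, 0.12 under normexp with the 75th percentile, 0.47 under spike-in scaling and -0.042 in the authors' table. Without Ndufaf6 it was 0.19. The difference between the 2 medians turned to 0.10 under quantile normalization and likewise under normexp with quantile normalization, so its direction depends on the scaling. Of the 46 members, 23 were above 0, 36 under quantile normalization, 42 under spike-in scaling and 14 in the authors' table. Past 2-fold towards slow fibres were 0 members, 2 under spike-in scaling, 2 with a limit of 1.5-fold and 5 with a limit of 0.32 (log2). Past it towards fast fibres were 2, but 0 under spike-in scaling, 1 under either normexp setting and 6 with the limit of 0.32. Over all genes these counts were 1216 towards slow and 1631 towards fast fibres, 2495 and 1035 under spike-in scaling, 716 and 926 under normexp with quantile normalization and 760 and 886 under normexp with the 75th percentile. The SD of the assembly factors, 0.63, was 0.59 under normexp with the 75th percentile, 0.46 with the other assembly factors added and 0.49 without Ndufaf6; the last 2 alternatives and the subunits without Ndufb3 were chosen after seeing the data. Of 300 single-gene values over 30 genes and 10 alternatives, 258 moved by less than the software error and 42 by more. Of the 42, 30 were under spike-in scaling, and neither gene past 2-fold changed sign. The count of 258 does not measure stability, because many of these values could not move further. Choosing probes without the background filter changed no value, and a median over probes can change only genes with 2 probes. The median of all probes, the percentile over probes passing the filter and the authors' table each add a constant smaller than the error. Of the 30 genes, the sign turned for 11 under spike-in scaling, 6 under quantile normalization, 5 under normexp with quantile normalization, 4 in the authors' table, 2 under the percentile over probes passing the filter and 1 under loess. The cause of the shifts between scalings was not tested.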
